A study of Homo sapiens with 6 samples.

Results

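Metallothioneins are small cysteine-rich proteins that bind zinc, copper and cadmium, and their RNA was measured here in a human thyroid line kept for 27 days in decabromodiphenyl ether (BDE209) or in its solvent. The genes taken were MT2A and every gene named MT1 plus 1 letter, together with the zinc exporter gene SLC30A1 and the gene of the metal-sensing factor MTF1. They came to 8 of the 16574 genes used: MT2A, MT1E, MT1X, MT1M, MT1F, MT1A, SLC30A1 and MTF1. MT1G, MT1B, MT1H and MT1L, which the same rule would take, were not analysed here. The family was chosen by its BDE209 and DMSO values within each replicate number, so those values are given as a description and no test is made on them.

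The cells were Nthy-ori 3-1, a wild-type line from normal human thyroid follicular epithelium that carries SV40 large T antigen. The BDE209 group of 3 libraries had 2.5 µM BDE209, a brominated flame retardant, and the DMSO group of 3 libraries had the same volume of dimethyl sulfoxide, both for 27 days. The labels number the replicates of each group but do not say that they were separate cultures, so any p-value measures only the spread between these libraries, which may be technical. The unit is FPKM, which divides the fragments of a gene by transcript length and by library size.

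Metallothioneins hold metal ions in clusters built on the sulphur of their cysteines. They buffer free zinc and copper, and they take up cadmium and oxidants. Zinc binds the zinc finger factor MTF1, which then sits on metal response elements in the promoters of the metallothionein genes and of SLC30A1. The product of SLC30A1 pumps zinc out across the cell surface. Glucocorticoids, inflammatory cytokines and low oxygen are also known to induce metallothionein genes.

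The coding sequences are much alike, which is why the family is read as a group. They are given 5′ to 3′ without the stop codon, from GENCODE v29, with the codons of cysteine in capitals:
MT2A: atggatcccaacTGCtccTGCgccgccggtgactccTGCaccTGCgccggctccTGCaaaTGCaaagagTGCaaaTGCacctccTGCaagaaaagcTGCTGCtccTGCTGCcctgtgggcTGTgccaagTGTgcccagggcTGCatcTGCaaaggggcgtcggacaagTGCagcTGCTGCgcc
MT1E: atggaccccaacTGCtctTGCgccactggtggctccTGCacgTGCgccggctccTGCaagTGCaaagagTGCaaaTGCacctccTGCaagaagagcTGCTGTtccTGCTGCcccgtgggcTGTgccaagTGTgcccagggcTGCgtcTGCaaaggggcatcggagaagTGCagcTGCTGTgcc
MT1X: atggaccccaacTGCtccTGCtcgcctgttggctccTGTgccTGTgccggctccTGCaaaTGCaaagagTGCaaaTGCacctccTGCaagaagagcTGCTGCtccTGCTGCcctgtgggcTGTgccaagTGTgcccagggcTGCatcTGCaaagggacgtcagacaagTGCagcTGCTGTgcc
MT1M: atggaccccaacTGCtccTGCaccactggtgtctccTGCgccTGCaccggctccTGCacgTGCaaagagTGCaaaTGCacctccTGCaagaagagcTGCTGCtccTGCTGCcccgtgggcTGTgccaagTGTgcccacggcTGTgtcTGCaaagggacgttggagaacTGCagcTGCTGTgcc
MT1F: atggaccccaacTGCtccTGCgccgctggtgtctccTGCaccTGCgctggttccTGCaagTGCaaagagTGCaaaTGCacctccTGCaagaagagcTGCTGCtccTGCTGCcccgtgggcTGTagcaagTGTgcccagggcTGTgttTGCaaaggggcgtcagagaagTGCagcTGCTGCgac

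Each of these reading frames had 61 codons, of which 20 coded for cysteine. The MT1F and MT1X frames were the least alike of the 5 printed, with 88.5% identical bases, and the frames most alike, at 92.3%, were those of MT2A and MT1E, MT2A and MT1X, and MT1E and MT1M. Of all stretches of 50 bases in the annotated transcript, 4.88% of MT2A, 5.34% of MT1E, 7.05% of MT1M and 3.59% of MT1F occurred in a transcript of another gene. In MT1X the share was 45.14%, or 181 of 401 stretches. Of these, 117 occurred in AC026461.1, an annotated transcript that overlaps MT1X on the same strand, 47 in MT1G and 38 in the pseudogene MT1XP1. SLC30A1 shared 0 such stretches and MTF1 shared 0.64%, but MTF1 overlaps a transcript annotated on the opposite strand, and use of strand in the authors' counting is not given in the sources used here. The length of 50 is a choice, since the read length is not given in the sources used here, and how the authors' counting placed shared reads is not given either. Levels of MT1X in particular are therefore uncertain.

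All metallothionein members lie in 1 cluster on chromosome 16, in the order MT2A, MT1E, MT1M, MT1A, MT1F, MT1X, and SLC30A1 and MTF1 lie on chromosome 1. The bases before the start sites are shown because metal response elements are how MTF1 reaches these genes. RefSeq promoters (build GRCh38.p14) were found for MT2A, MT1X, SLC30A1 and MTF1. The 250 bases before the start are printed for the genes that hold a core, 5′ to 3′ on the strand of the gene, with the metal response element core in capitals:
MT2A, chr16:56608334-56608583, plus strand: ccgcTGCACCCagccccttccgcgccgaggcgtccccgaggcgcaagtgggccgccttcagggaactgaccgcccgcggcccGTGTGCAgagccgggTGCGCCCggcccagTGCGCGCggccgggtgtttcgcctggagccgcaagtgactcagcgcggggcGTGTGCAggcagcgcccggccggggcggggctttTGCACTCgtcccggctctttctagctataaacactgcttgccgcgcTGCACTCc
MT1X, chr16:56682220-56682469, plus strand: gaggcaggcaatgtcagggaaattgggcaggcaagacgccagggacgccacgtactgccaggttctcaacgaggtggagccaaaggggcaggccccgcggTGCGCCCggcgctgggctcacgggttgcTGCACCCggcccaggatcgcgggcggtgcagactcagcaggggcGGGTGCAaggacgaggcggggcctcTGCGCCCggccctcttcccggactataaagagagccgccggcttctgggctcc
SLC30A1, chr1:211579162-211579411, minus strand: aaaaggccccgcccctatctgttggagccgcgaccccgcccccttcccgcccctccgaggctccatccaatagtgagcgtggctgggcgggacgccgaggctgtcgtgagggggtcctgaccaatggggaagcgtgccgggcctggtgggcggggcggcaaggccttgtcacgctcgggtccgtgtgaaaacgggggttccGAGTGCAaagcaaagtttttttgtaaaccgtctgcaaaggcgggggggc

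The core was searched on both strands as TGCACNC or TGCGCNC, and no match overlapped another. MT2A held 7 cores and MT1X held 4. SLC30A1 held 1, and the window of MTF1 held 0. Of 27305 promoters with the same length of sequence, 24.7% held at least 1 core and 1.6% held at least 3. A match is a run of letters and not a site shown to be bound, and its absence from this window says nothing of the factor.

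**Figure D1:**
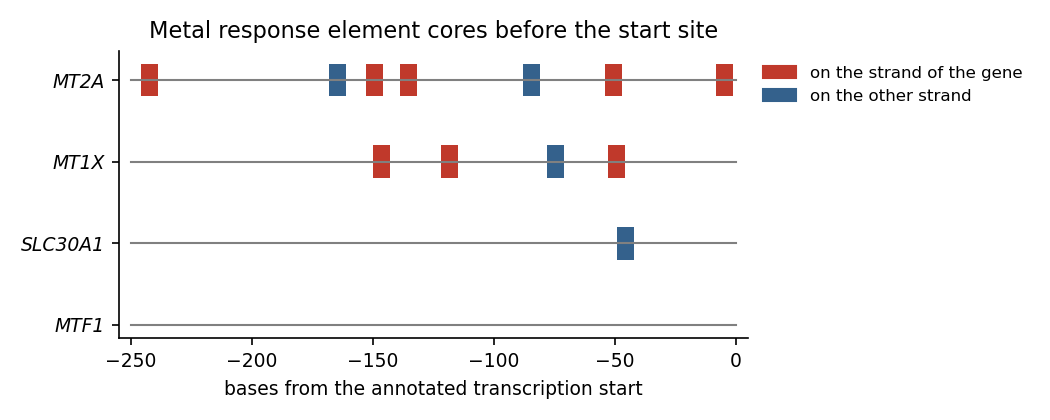
Positions of metal response element cores in the 250 bases before the annotated start of 4 genes, in bases from the start. Red blocks lie on the strand of the gene and blue blocks on the other; MT2A holds 7, MT1X 4, SLC30A1 1 and MTF1 0.

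The 2 libraries of replicate 2 stood apart from the others in both groups. Their FPKM summed to 829739 in BDE209 and 819086 in DMSO, while the other libraries summed to between 567810 and 596725, and depth in fragments is not known. Of 10 markers of thyroid follicular cells, 1 reached 1 FPKM in every library, namely HHEX, and their summed level was 7.30 to 9.70 in BDE209 and 6.45 to 8.49 in DMSO. All 9 mesenchymal markers reached it, with sums of 9214.4 to 12349.3 in BDE209 and 9996.2 to 14658.1 in DMSO, as did 4 of 6 epithelial markers, with sums of 118.8 to 155.0 in BDE209 and 150.5 to 178.7 in DMSO. Markers of immune and endothelial cells summed to 3.26 to 4.03 in BDE209 and 2.60 to 3.25 in DMSO, and those of parafollicular C cells to 0.58 to 0.65 in BDE209 and 0.49 to 0.98 in DMSO. The other 9 follicular markers, which include the defining genes of the cell type, did not reach 1 FPKM in all libraries, so the label of a follicular cell rests on the origin of the line.

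Metallothionein RNA was abundant with and without BDE209. MT2A ranked between 7 and 24 among all genes of a library by FPKM, and MT1E between 50 and 83. The summed metallothionein FPKM was 6869.2, 7429.3 and 6737.5 in BDE209 replicates 1, 2 and 3, against 5671.2, 8613.6 and 6727.2 in DMSO replicates 1, 2 and 3. That is 7012 ± 367.3 in BDE209 and 7004 ± 1490.6 in DMSO (SD, n = 3 each). The groups overlapped, and DMSO replicate 2 was the highest library and DMSO replicate 1 the lowest. The log2(FPKM + 1) of the sum differed, as BDE209 minus DMSO, by 0.28, -0.21 and 0.00 in replicates 1, 2 and 3. The family took 1.08 ± 0.165% of the summed FPKM in BDE209 and 1.05 ± 0.105% in DMSO. In bulk RNA, fewer cells that express a gene and less of its RNA per cell cannot be told apart.

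The order of the levels was the same in both groups down to MT1M. FPKM is scaled to transcript length, so levels of different genes can be set beside each other, but only roughly. The level of MT1X is uncertain, and in replicate 2 a shift that moved with transcript length remained. MT2A stood above MT1E in every library, MT1E above MT1X, and MT1X above MT1M, with no overlap between neighbours. MT1M also stood above MT1F in every library. Their ranges over all libraries overlapped, at 8.83 to 32.24 FPKM for MT1M and 1.77 to 9.56 FPKM for MT1F. The ranges of MT1F, SLC30A1 and MTF1 overlapped with each other. MT1F came first of those in the BDE209 mean, at 6.62 ± 3.42 FPKM, and last in the DMSO mean, at 2.55 ± 0.823 FPKM. MT1A (ENSG00000205362) was close to the bottom: it was listed at 0, 0.41 and 0 FPKM in BDE209 replicates 1, 2 and 3 and at 0.43, 0 and 0 FPKM in DMSO replicates 1, 2 and 3.

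**Figure D2:**
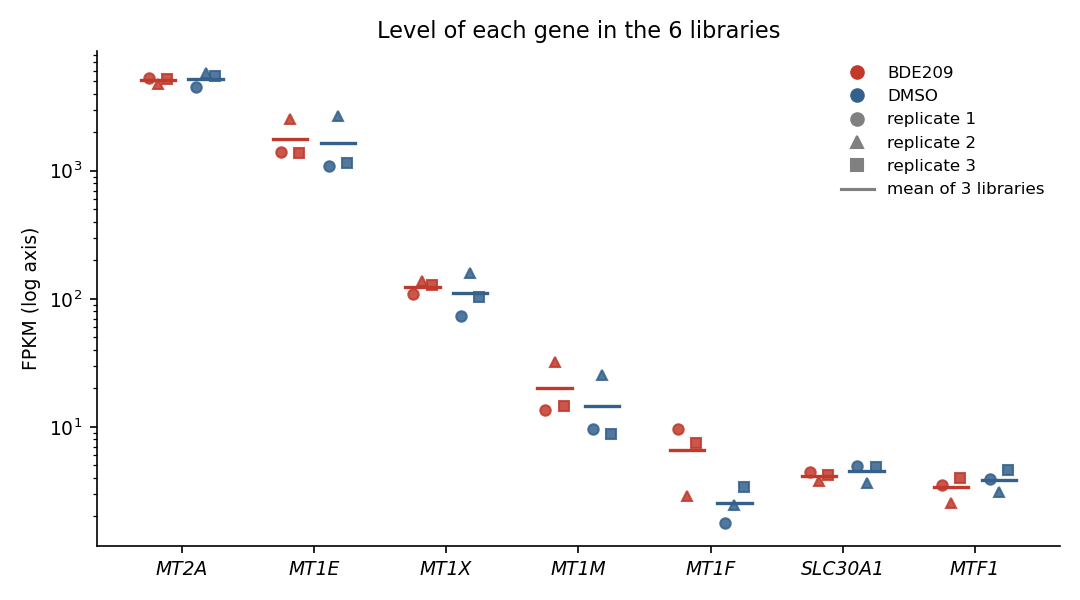
FPKM of 7 genes on a log axis, with BDE209 in red to the left of DMSO in blue, a marker shape for each replicate number and a bar at the mean of 3 libraries. MT2A and MT1E sit far above the rest, and the triangles of replicate 2 stand high in MT1E and MT1M in both groups.

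MT2A (ENSG00000125148), the main metallothionein of most human tissues, had 5332.15, 4714.00 and 5225.44 FPKM in BDE209 replicates 1, 2 and 3, against 4491.93, 5765.91 and 5466.39 FPKM in DMSO replicates 1, 2 and 3. Its mean was 5090.5 ± 330.4 FPKM in BDE209 and 5241.4 ± 666.1 FPKM in DMSO. The groups overlapped, and BDE209 was the higher library of its pair in replicate 1 only. The log2 differences within pairs were 0.25, -0.29 and -0.07, with a mean of -0.04 ± 0.27 (SD over 3 pairs).

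MT1E (ENSG00000169715), the most abundant MT1 gene here, had 1404.70, 2542.70 and 1363.01 FPKM in BDE209 replicates 1, 2 and 3, against 1094.69, 2661.62 and 1144.98 FPKM in DMSO replicates 1, 2 and 3. Both replicate 2 libraries stood high, so the groups overlapped. Within pairs BDE209 was 1.28 times DMSO in replicate 1, 0.955 times in replicate 2 and 1.19 times in replicate 3. MT1X (ENSG00000187193) had 109.21, 137.09 and 127.22 FPKM in BDE209 replicates 1, 2 and 3, against 72.74, 158.29 and 103.59 FPKM in DMSO replicates 1, 2 and 3. It followed MT1E in sign, with BDE209 at 1.50, 0.866 and 1.23 times DMSO. The mean log2 difference was 0.18 ± 0.22 for MT1E and 0.22 ± 0.40 for MT1X, each smaller than its spread over the pairs (SD).

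MT1M and MT1F, which are expressed at low level, were the members that stood higher in BDE209 in all 3 pairs. MT1M (ENSG00000205364) had 13.63, 32.24 and 14.44 FPKM in BDE209 replicates 1, 2 and 3, against 9.62, 25.33 and 8.83 FPKM in DMSO replicates 1, 2 and 3. The groups overlapped because both replicate 2 libraries were high, while within pairs BDE209 was 1.42, 1.27 and 1.64 times DMSO. MT1F (ENSG00000198417) had 9.56, 2.87 and 7.43 FPKM in BDE209 replicates 1, 2 and 3, against 1.77, 2.47 and 3.41 FPKM in DMSO replicates 1, 2 and 3. BDE209 replicates 1 and 3 lay above every DMSO library, and BDE209 replicate 2 lay inside the DMSO range. Within pairs BDE209 was 5.40, 1.16 and 2.18 times DMSO. The mean log2 difference was 0.48 ± 0.16 for MT1M and 1.01 ± 0.89 for MT1F. That placed MT1M at rank 164 and MT1F at rank 22 of the 11223 genes tested, ranked from the highest difference down. The other tested members ranked lower: MT1X at 963, MT1E at 1369, MT2A at 7264, SLC30A1 at 8964 and MTF1 at 10235. The log2(FPKM + 1) scale understates the change of a gene as low as MT1F.

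The genes of the exporter and the metal sensor lie outside the cluster and were low in both groups. SLC30A1 (ENSG00000170385) had 4.43, 3.80 and 4.18 FPKM in BDE209 replicates 1, 2 and 3, against 4.99, 3.66 and 4.87 FPKM in DMSO replicates 1, 2 and 3. The groups overlapped, and BDE209 was the lower library of its pair in replicates 1 and 3. MTF1 (ENSG00000188786) had 3.51, 2.56 and 4.02 FPKM in BDE209 replicates 1, 2 and 3, against 3.92, 3.09 and 4.63 FPKM in DMSO replicates 1, 2 and 3. MTF1 was lower in BDE209 in all 3 pairs, at 0.895, 0.828 and 0.868 times DMSO, although the groups overlapped. The mean log2 difference was -0.09 ± 0.12 for SLC30A1 and -0.16 ± 0.04 for MTF1.

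**Figure D3:**
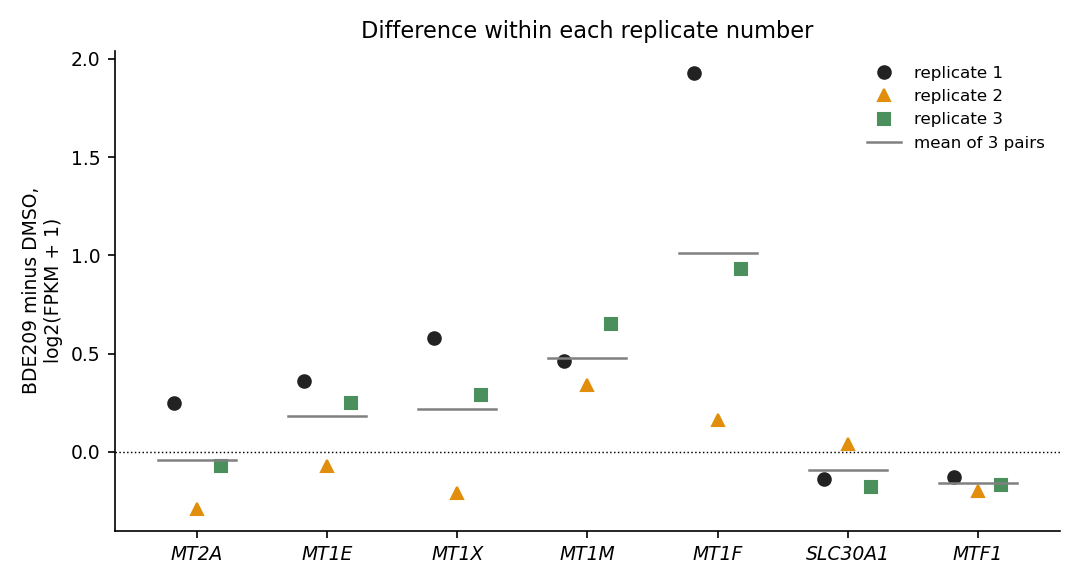
Difference in log2(FPKM + 1), as BDE209 minus DMSO, within each replicate number, with a grey bar at the mean of 3 pairs. MT1F reaches 1.93 in replicate 1 and 0.16 in replicate 2, the 3 points of MT1M lie between 0.34 and 0.65, and the 3 points of MTF1 lie between -0.20 and -0.13.

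Of the 8 members, 7 had at least 1 FPKM in 3 or more libraries and so entered the fit over all genes, and MT1A did not. Among those 7, MT1F and MT1M were higher in all 3 pairs, and MTF1 was lower in all 3. Over all 11223 genes tested, 21.9% were higher and 17.3% were lower in all 3 pairs. In 0 members did every BDE209 library lie above or below every DMSO library, where 3.22% of all genes tested lay above and 2.00% below. Limma called 0 genes at an adjusted p under 0.05, or 0.00%, with 176 genes at an unadjusted p under 0.05. With the replicate number as a block it also called 0.00%, with 1847 genes at that unadjusted level. Without replicate 2 the differences were 0.09 for MT2A, 0.31 for MT1E, 0.44 for MT1X, 0.56 for MT1M and 1.43 for MT1F, against -0.16 for SLC30A1 and -0.15 for MTF1. MT2A was thereby the member whose sign turned when that pair was left out. The median difference over the 7 members was 0.36, -0.07 and 0.25 log2 units in replicates 1, 2 and 3, against 0.01, 0.02 and 0.00 over all genes tested. The 7 include SLC30A1 and MTF1, and in each pair that median was the value of MT1E.

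Replicate 2 stood apart in the make-up of the family in both groups. MT2A made up 77.6%, 63.5% and 77.6% of the summed metallothionein FPKM in BDE209 replicates 1, 2 and 3, against 79.2%, 66.9% and 81.3% in DMSO replicates 1, 2 and 3. MT1E made up 20.4%, 34.2% and 20.2% in BDE209, against 19.3%, 30.9% and 17.0% in DMSO. The MT1 genes together came to 0.288, 0.576 and 0.289 times MT2A in BDE209 replicates 1, 2 and 3, against 0.263, 0.494 and 0.231 times in DMSO. That ratio was higher in BDE209 in all 3 pairs, by less than the gap between replicate 2 and the other replicates.

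**Figure D4:**
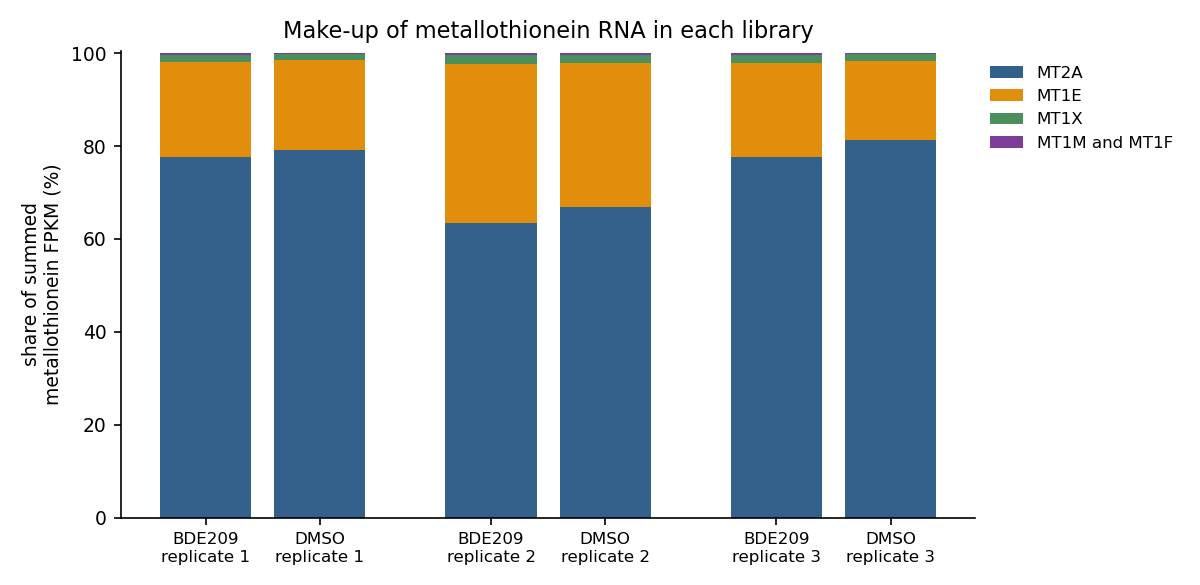
Share of the summed metallothionein FPKM taken by MT2A, MT1E, MT1X, and MT1M with MT1F, in percent, for BDE209 beside DMSO in each replicate number. MT1E takes 34.2% and 30.9% in the replicate 2 libraries and 17.0% to 20.4% in the others.

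Set against the mean of replicates 1 and 3 on the log2(FPKM + 1) scale, replicate 2 was higher by 1.15 in BDE209 and 1.37 in DMSO for MT1M, and by 0.88 in BDE209 and 1.25 in DMSO for MT1E. MT1X followed with 0.22 in BDE209 and 0.86 in DMSO, while MT2A differed by -0.16 in BDE209 and 0.22 in DMSO. For MT1F it differed by -1.29 in BDE209 and -0.01 in DMSO, so in MT1F replicate 2 stood low among the BDE209 libraries and inside the range of the DMSO libraries. Transcript length moved with this shift over all genes: its median was 0.37 in BDE209 and 0.31 in DMSO in the quartile of genes with the shortest transcripts, and -0.41 in BDE209 and -0.37 in DMSO in the quartile with the longest. The metallothioneins belong to the quartile with the shortest transcripts, and SLC30A1 and MTF1 to that with the longest. The part of transcript length in the replicate 2 values was not tested.

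The gene lists read below were chosen with earlier results of these data known. Their counts beside the share of all genes are therefore a description. The question for the rest of the metal system was whether genes that the member rule did not use changed with BDE209. For all of them limma's adjusted p was 1.00 in the fit to all 6 libraries, and for the genes named by rule it was 0.204 to 0.478 with the block. Zinc transporters, which bring zinc into the cytosol (SLC39A family) or carry it out (SLC30A family), had 15 tested genes of 23 listed. Limma called 0 of them higher and 0 lower, and 0 with the block, in fits that called 0 of all genes tested. Their median difference was 0.06, against 0.01 over all genes tested, and 7 were higher and 2 lower in all 3 pairs, where over all genes tested 21.9% were higher and 17.3% lower. The same counts were 7 and 4 of the 20 tested genes of copper and iron handling, 5 and 5 of the 19 of metal and thiol stress, 5 and 4 of the 15 that glucocorticoids regulate, and 2 and 0 of the 9 neighbours of the cluster. With the block, limma's unadjusted p was under 0.05 for 2 of the 15 zinc transporters. In the other lists, in the same order, it was so for 6 of 20, 6 of 19, 7 of 15 and 1 of 9. Over all genes tested it was so for 1847 of 11223. SLC30A4, an exporter into vesicles, had 2.21, 1.93 and 1.88 FPKM in BDE209, against 2.01, 1.25 and 1.58 FPKM in DMSO, a log2 difference of 0.21 (SE 0.148). Each SE here and below is from the fit to all 6 libraries without the block, so it includes shifts shared by a replicate number. SLC39A8, an importer of zinc and manganese, had 7.49 ± 0.148 FPKM in BDE209 and 6.63 ± 0.493 FPKM in DMSO, a difference of 0.15 (SE 0.110).

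Since both replicate 2 libraries stand apart, the fit was also made without them. Limma then called 4.47% of all genes tested higher and 2.33% lower, on 2 libraries a group. Of the zinc transporters it called 1 higher and 0 lower. That gene was SLC39A14, an importer of zinc and iron that inflammation induces, at 53.38 and 55.09 FPKM in BDE209 replicates 1 and 3, against 42.03 and 44.22 FPKM in DMSO replicates 1 and 3 (difference 0.32, limma adjusted p = 0.0456). In replicate 2 it read 32.38 FPKM in BDE209 and 37.01 FPKM in DMSO.

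Genes of copper and iron handling had 20 tested of 27 listed, with a median difference of 0.06; 0 were called in all libraries and 0 with the block. STEAP2, a metalloreductase, had 6.88, 4.14 and 7.23 FPKM in BDE209, against 3.92, 3.66 and 4.78 FPKM in DMSO, a difference of 0.44 (SE 0.213), with BDE209 higher in every pair. SLC25A37, the mitochondrial iron importer mitoferrin, had 43.0 ± 4.98 FPKM in BDE209 and 34.9 ± 0.537 FPKM in DMSO, a difference of 0.29 (SE 0.132), and every BDE209 library lay above every DMSO library. Without replicate 2, 4 of the 20 were called higher and 1 lower, in the fit that called 4.47% of all genes tested higher and 2.33% lower. Those higher were STEAP2, SLC25A37, FTH1 and ACO1, and the lower was STEAP3, an endosomal ferrireductase. FTH1, the heavy chain of the iron store ferritin, had 3721.03 and 3806.14 FPKM in BDE209 replicates 1 and 3, against 2168.71 and 2293.87 FPKM in DMSO (difference 0.75, limma adjusted p = 0.0028), and 2045.88 FPKM in BDE209 against 1765.30 FPKM in DMSO of replicate 2. FTH1 has many pseudogenes that can share its reads. ACO1, an iron regulatory protein, differed by 0.70 there (limma adjusted p = 0.00316) and by -0.10 in replicate 2.

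Genes of metal and thiol stress, which cadmium, arsenite or oxidants are known to induce, had 19 tested of 20 listed and a median difference of -0.05. Limma called 0 of them in all libraries and 0 with the block. OSGIN1, an oxidative stress gene, had 7.78, 8.46 and 8.95 FPKM in BDE209, against 10.20, 10.89 and 10.56 FPKM in DMSO, a difference of -0.30 (SE 0.109), with every BDE209 library below every DMSO library. HSPH1, a cytosolic chaperone, had 25.0 ± 2.04 FPKM in BDE209 and 29.6 ± 1.93 FPKM in DMSO, a difference of -0.24 (SE 0.122). Without replicate 2, against the same 4.47% and 2.33% over all genes tested, SQSTM1, an autophagy receptor, was called higher (difference 0.65, limma adjusted p = 0.0032) and HSPH1 lower (difference -0.34, limma adjusted p = 0.041). HMOX1, the haem oxygenase that cadmium and haem induce, was named after its values were seen: it had 26.03, 23.66 and 28.44 FPKM in BDE209, against 23.10, 23.36 and 24.68 FPKM in DMSO, a difference of 0.13.

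Genes that glucocorticoids are known to regulate had 15 tested of 18 listed, with a median difference of 0.16, and 0 were called in all libraries and 0 with the block. CEBPD, a transcription factor of the acute phase, had 19.28, 16.88 and 38.10 FPKM in BDE209, against 6.69, 13.03 and 9.52 FPKM in DMSO, a difference of 1.21 (SE 0.356), with every BDE209 library above every DMSO library. NFKBIA, the inhibitor of NF-kB, had 77.10, 83.18 and 81.78 FPKM in BDE209, against 45.67, 78.58 and 41.71 FPKM in DMSO, a difference of 0.59 (SE 0.251), and the groups overlapped because DMSO replicate 2 was high. Without replicate 2, 4 of the 15 were called higher, namely ANGPTL4, NFKBIA, KLF9 and ERRFI1, and 2 lower, namely SGK1 and GADD45B, beside 4.47% higher and 2.33% lower over all genes tested. ANGPTL4, a lipase inhibitor, had 24.39 and 28.04 FPKM in BDE209 replicates 1 and 3, against 4.63 and 5.86 FPKM in DMSO replicates 1 and 3 (difference 2.13, limma adjusted p = 0.000281). In replicate 2 it was high in both groups, at 37.20 FPKM in BDE209 and 36.02 FPKM in DMSO. Hypoxia or inflammatory signals also induce several of these genes.

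Genes next to the cluster were read as well, since they share its place on chromosome 16. Of the 5 nearest genes with values on each side, 9 of 10 were tested, with a median difference of 0.02, and 0 were called in all libraries and 0 with the block. BBS2, the nearest on the MT4 side and a gene of the cilium, had 9.31, 5.74 and 8.58 FPKM in BDE209, against 6.47, 5.37 and 6.79 FPKM in DMSO, a difference of 0.28 (SE 0.193), and without replicate 2 it was the 1 of 9 neighbours called (0.38, limma adjusted p = 0.0439), where 4.47% of all genes tested were called higher. NLRC5, an activator of antigen presentation genes, had 2.01 ± 0.763 FPKM in BDE209 and 1.70 ± 0.461 FPKM in DMSO (difference 0.14, SE 0.241). NUP93, the nearest on the MT1X side, was named after its values were seen and differed by -0.07.

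**Figure D5:**
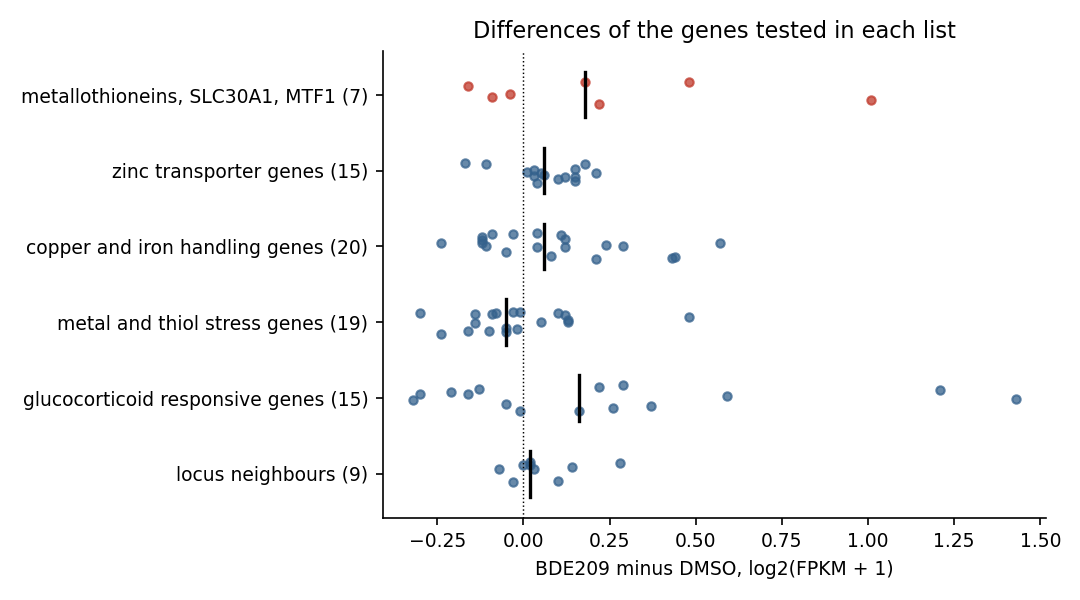
Difference in log2(FPKM + 1), as BDE209 minus DMSO, for each gene tested, by list, with the number tested in brackets and a black bar at the median. MT1F lies at 1.01 among the members, and the medians of the other lists lie between -0.05 and 0.16.

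The genes whose levels followed MT2A most closely over the 6 libraries, by root mean square distance between log2(FPKM + 1) profiles centred on their means, were DOK4, ACADS, DUSP5, CASTOR1 and ZNHIT2. Their distances were 0.0412, 0.0476, 0.0481, 0.0512 and 0.0612 log2 units. DOK4, an adaptor of receptor kinases, had 5.86, 5.17 and 5.73 FPKM in BDE209, against 5.10, 6.35 and 5.75 FPKM in DMSO, so like MT2A it was higher in BDE209 in replicate 1 only. Libraries of the same replicate number share shifts over many genes, so a small distance over 6 libraries is a description.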

How the data were processed

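RNA of 6 Nthy-ori 3-1 libraries was analysed from 1 deposited FPKM table per library, to 2 decimals, with human Ensembl identifiers, per the file headers. The submitters' processing notes name RSEM, Bowtie2 and Bowtie 0.12.2, and as builds mm10 and mm8, which are of the mouse. Which human build was used, and how shared reads were handled, is not given in the sources used here. Repeated identifiers (40 rows) were left out, and 16535 of 16574 genes matched a symbol. Limma 3.58.1 (R 4.3.3, trend and robust) was run on log2(FPKM + 1) over the 11223 genes with at least 1 FPKM in 3 or more libraries. Treatment was the only term, with Benjamini-Hochberg adjustment. The fit was also run on simulated data with the same spread for all genes and replicate shifts not tied to transcript length. That run does not cover a shift like that of replicate 2. The members, lists and naming rule (members; 2 genes of smallest p in each list, or up to 4 if called; 5 profiles nearest to MT2A) were chosen with earlier results of these data known.

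Pairs here are libraries of equal number. Their deviations from the group means correlated over genes at 0.738, 0.875 and 0.824 for replicates 1, 2 and 3. Replicate 2 stands apart in both groups, which enters the group means and so all 3 correlations. Libraries of unlike number were not correlated, so whether replicates 1 and 3 are matched pairs was not tested. Alternatives were total and median-of-ratios scaling, a pseudocount of 0.1, no filter or 5 FPKM, limma without its options, the replicate block, and each library or number left out. Depth in fragments is not known. Shared stretches and coding sequences came from GENCODE v29, promoters and gene order from RefSeq GRCh38.p14.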

Additional observations from a re-analysis of the deposited data

How the results depend on the processing

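The count of genes called by limma was 0 under both scalings, the pseudocount of 0.1, no filter, the minimum of 5 FPKM, limma without its options and the replicate block (0 called). It ran from 0 to 764 with libraries or numbers left out: 764 came without replicate 2, and 1, C1QTNF1, without BDE209 replicate 2. Without replicate 2 the calls also went up in every list, so the ranges with libraries left out were 0 to 5 for copper and iron genes, 0 to 6 for glucocorticoid responsive genes, 0 to 2 for stress genes, and 0 to 1 for zinc transporters and for locus neighbours. The median difference over the members that passed the filter was 0.18, and ran from -0.04 (without DMSO replicate 1) to 0.51 (without DMSO replicate 2). The difference of the summed metallothionein FPKM, 0.02, stayed within -0.12 to 0.18 under all alternatives run, and its sign turned with some libraries left out. Median-of-ratios scaling moved it to -0.01 and the median of all genes alike, to -0.02 in place of 0.01. MT1F and MT1M stayed above 0, and MTF1 and SLC30A1 below 0, in every alternative run for them. MT1F ran from 0.55 to 1.44, MT1M from 0.10 to 0.94 and MTF1 from -0.28 to -0.02. The filters and the replicate block leave a member's difference, and that of the sum, unchanged by construction. MT1F, MT1M and MTF1 each had the same sign in all 3 pairs, so leaving out a replicate number could not turn it. These signs are therefore a description and no support. MT1E (-0.11 to 0.60), MT1X (-0.05 to 0.51) and MT2A (-0.18 to 0.09) changed sign with libraries left out. Leaving out 1 library breaks a pair, so the shift of replicate 2 enters those values. Depth is unknown, and rounding to 2 decimals limits genes as low as MT1A.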
